A study of Homo sapiens with 6 samples.

Results

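The transcripts described here are those of 10 genes of the oxygen response and of blood vessel growth, chosen by gene symbol: HIF1A, EPAS1, VEGFA, VEGFB, VEGFC, ANGPTL4, ADM, CA9, CA12 and NDRG1. All 10 were among the 35856 genes of the deposited table and all 10 passed the filter on low counts, which left 20741 genes for the test. RNA was sequenced from HCCLM3, a metastatic human hepatocellular carcinoma line, in 3 libraries of cells transfected with a plasmid carrying LINC00862, a long noncoding RNA (group LINC00862), and 3 libraries of cells transfected with the empty plasmid (group Empty, labelled NC, that is, the negative control). By their labels and methods, both groups share the cell line, the transfection and the vector. No label or method names a low-oxygen treatment, and the sources used here do not say whether the transfected cells of a group were a pool or a clone, nor whether the 3 libraries of a group came from separate cultures, so the p-values measure the spread between these libraries, which may be technical.

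Cells sense oxygen through the hypoxia-inducible factors (HIF), pairs of an oxygen-labile alpha subunit and a stable beta subunit. With oxygen present, prolyl hydroxylases mark the alpha subunit for the VHL ubiquitin ligase, and without it the pair binds short response elements and activates genes for glucose use, pH control and vessel growth. HIF1A and EPAS1 encode the alpha subunits HIF-1α and HIF-2α, whose amount is set largely at the level of the protein, which RNA sequencing does not measure. The other genes lie downstream or at the vessel: VEGFA, VEGFB and VEGFC encode secreted vascular growth factors, ANGPTL4 a secreted inhibitor of lipoprotein lipase, ADM the vasodilator peptide adrenomedullin, CA9 and CA12 membrane carbonic anhydrases that act outside the cell, and NDRG1 a cytoplasmic stress-responsive protein.

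The promoters of the 2 carbonic anhydrases are shown because these 2 genes changed most among the 10 and in opposite directions. Sequences are those of RefSeq on GRCh38.p14, each 300 bases long, with 250 bases before the start and 50 from it, written 5′ to 3′ on the strand of the gene. The capitals mark the core letters of the HIF response element, ACGTG or GCGTG, which read CACGT or CACGC where the core lies on the other strand; ACGTG is also part of CACGTG, the E-box bound by other factors.
CA9, chr9:35673678-35673977, plus strand: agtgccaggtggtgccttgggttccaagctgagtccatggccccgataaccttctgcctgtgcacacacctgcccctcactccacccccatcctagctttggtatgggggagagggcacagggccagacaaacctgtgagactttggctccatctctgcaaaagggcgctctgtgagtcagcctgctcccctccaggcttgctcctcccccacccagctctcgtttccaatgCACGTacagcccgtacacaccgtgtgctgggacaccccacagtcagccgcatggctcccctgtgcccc
CA12, chr15:63381797-63382096, minus strand: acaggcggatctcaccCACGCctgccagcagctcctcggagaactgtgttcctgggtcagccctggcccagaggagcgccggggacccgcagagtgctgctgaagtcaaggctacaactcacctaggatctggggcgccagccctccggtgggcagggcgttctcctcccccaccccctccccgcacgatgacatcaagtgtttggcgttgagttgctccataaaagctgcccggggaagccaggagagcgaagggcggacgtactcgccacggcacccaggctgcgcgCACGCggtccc
The core of CA9 began 18 bases before the start. CA12 held 2 cores, of which the first began 234 bases before the start and the second at base 40 of the transcript, the start being base 1. Of 35116 such windows over the annotated genes, 48.5% held a core on either strand, so a match was common in windows of this length.

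A window was used for 8 of the 10 genes, and each of the 8 had a window with at least 1 core. HIF1A had 2 windows, and the second held none. For the other genes with a match, the core is given in capitals with 13 bases on each side, to show which of the letters each carries and in which orientation.
HIF1A, chr14:61695296-61695326, plus strand: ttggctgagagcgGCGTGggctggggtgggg
EPAS1, chr2:46297277-46297307, plus strand: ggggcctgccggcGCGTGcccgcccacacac
VEGFB, chr11:64234510-64234540, plus strand: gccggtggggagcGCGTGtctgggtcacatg
VEGFC, chr4:176792964-176792994, minus strand: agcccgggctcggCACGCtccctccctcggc
ANGPTL4, chr19:8363908-8363938, plus strand: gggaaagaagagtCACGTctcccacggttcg
ADM, chr11:10304959-10304989, plus strand: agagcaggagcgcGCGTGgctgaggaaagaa
The cores began 204 bases before the start in HIF1A, 117 in EPAS1, 61 in VEGFB, 59 in VEGFC, 234 in ANGPTL4 and 101 in ADM. VEGFA and NDRG1 are named without a sequence. A match is a run of letters and not a shown site of binding, and the genes with a core included some that were higher, some that were lower and some that did not pass the test.

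The libraries held between 58241123 and 68229070 counted reads. LINC00862 itself had 11, 21 and 6 reads in Empty and 145, 121 and 76 in LINC00862, a log2 fold change of 3.22 ± 0.53 (SE, edgeR quasi-likelihood test, Benjamini-Hochberg adjusted p = 0.000583). The groups stood far apart: Spearman correlations of FPKM across genes were 0.896 to 0.909 within a group and 0.754 to 0.767 between the groups, and the 10 most abundant genes took 8.42% to 11.7% of the reads in Empty but 19.4% to 29.2% in LINC00862. Marker genes moved too, where 34.4% of all genes tested were higher and 29.8% lower. Of 8 tested hepatocyte and hepatoma markers 6 were higher and 2 (AFP and SERPINA1) lower, with summed FPKM of 3.05 to 3.60 in Empty and 539 to 618 in LINC00862, where FGB, the fibrinogen beta chain, made up nearly all of the sum, while ALB, which encodes albumin, averaged 0.00781 and 1.51 and AFP, which encodes alpha-fetoprotein, 0.104 and 0. HNF4A, a hepatocyte transcription factor, averaged 0.00237 and 0.0447. Thus ALB, AFP and HNF4A were at or near 0 in Empty and low or at 0 in LINC00862. Of the other markers in this list, TF averaged 0.0369 and 15.5 FPKM, TTR 0 and 0.464, APOB 0.00178 and 0.144, and SERPINA1 1.29 and 0.0950. ALB, TTR, APOB and HNF4A passed the low-count filter only through LINC00862, and AFP only through Empty, so each could only be called that way. Of 7 tested fibroblast and mesenchymal markers COL1A1 and LUM were higher and PDGFRB, THY1 and VIM lower (summed FPKM 529 to 621, largely VIM, which encodes vimentin, against 15.4 to 19.6, largely COL1A1, a collagen chain), of 6 epithelial markers 5 were higher (194 to 287 against 442 to 506), and of 6 blood cell markers CD14 and CD68 were higher (734 to 822 against 520 to 650, largely HBB, which encodes a globin). Of 6 tested endothelial markers CDH5 alone was higher (1.29 to 1.85 against 4.51 to 6.01). EPCAM, an epithelial adhesion molecule, averaged 0.547 and 160 FPKM, and VIM 539 and 3.77. An effect of LINC00862 and a difference between the cells of the groups that has another origin cannot be told apart in these libraries, which holds for every fold change given here. None of these markers was at 0 in all 6 libraries, the part that these differences played in the results below was not tested, and in such bulk samples fewer cells of a type and less RNA per cell cannot be told apart.

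The 10 genes did not move together. EPAS1, VEGFA and CA12 were higher, VEGFB, VEGFC and CA9 were lower, and HIF1A, ANGPTL4, ADM and NDRG1 did not pass the test. Thus 6 of 10 passed at a false discovery rate of 0.05, beside 64.2% of all genes tested. The 3 that were higher stand beside 34.4% of all genes called higher, and the 3 that were lower beside 29.8% called lower, so the shares of the 10 genes were close to those of all genes tested. The median log2 fold change was -0.41 over the 10 genes and 0.11 over all genes, and the median size of the change, regardless of sign, was 1.26 and 1.16. Fold changes are given as LINC00862 against Empty, and levels as FPKM, fragments scaled to transcript length and to the mapped fragments of the library.

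**Figure D1:**
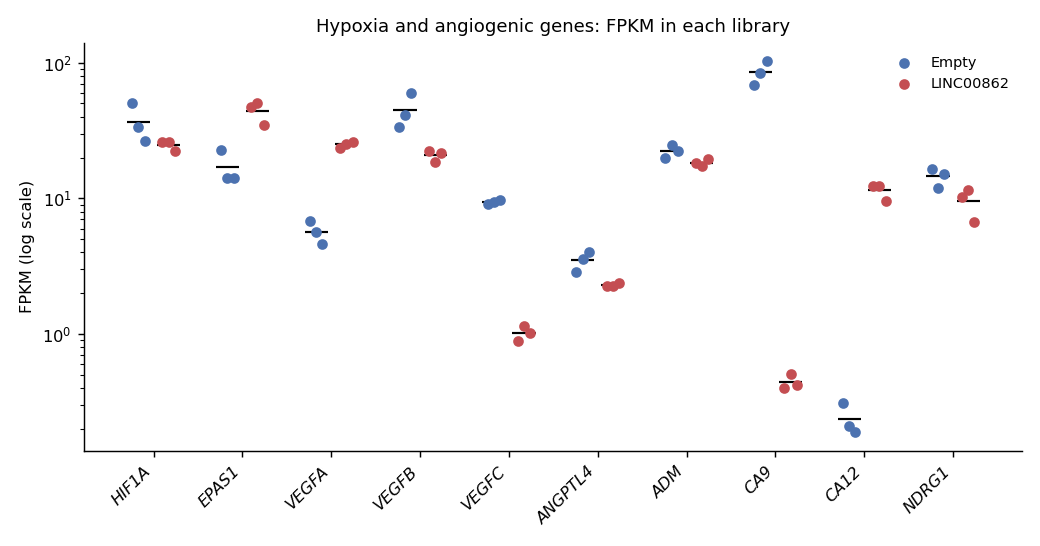
FPKM (log axis) of the 10 genes in each of the 6 libraries, with points for libraries and bars for group means. CA9 lies between 68.1 and 102 in Empty and between 0.405 and 0.511 in LINC00862, CA12 lies the other way round, and the points of HIF1A, ADM, ANGPTL4 and NDRG1 nearly meet.

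HIF1A (ENSG00000100644, chromosome 14, 61695513 to 61748258, plus strand of hg38) encodes the alpha subunit of the factor that acts on glycolytic genes. Its FPKM was 50.4, 33.5 and 26.5 in Empty and 26.0, 26.0 and 22.2 in LINC00862. The spread lay almost entirely in Empty, whose lowest library was within 1 FPKM of the highest LINC00862 library. The log2 fold change was -0.38 ± 0.19 (SE; 95% interval -0.83 to 0.06) and did not pass the test (edgeR adjusted p = 0.112). Without Empty replicate 3 it was -0.54 and passed (adjusted p = 0.0236), while without Empty replicate 1, the library with the highest value, it was -0.14 (adjusted p = 0.33). HIF1A-AS3, an antisense gene that overlaps HIF1A by 40695 bases on the opposite strand, had 912, 1069 and 882 reads in Empty and 190, 126 and 171 in LINC00862 and fell by 2.46 on the log2 scale (SE 0.24, edgeR adjusted p = 2.42e-05). The library method marks strand, but whether counting used it is not stated in the sources used here. If it did not, reads of the pair cannot be told apart; the antisense counts were at most 1069 beside at least 7657 for HIF1A. HIF1A-AS1 and AL137129, which overlap HIF1A as well, had at most 12 reads in any library and were not tested.

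EPAS1 (ENSG00000116016, chromosome 2, 46293667 to 46386696, plus strand) encodes the other major alpha subunit, known for its role in endothelial and renal cells and in erythropoietin control. Its FPKM was 22.6, 14.2 and 14.2 in Empty and 47.5, 50.6 and 34.6 in LINC00862. Every LINC00862 library was above every Empty library. EPAS1 rose by 1.56 ± 0.19 on the log2 scale (SE; 95% interval 1.12 to 2.00, edgeR adjusted p = 0.000109), from a mean of 17.0 ± 4.88 to 44.2 ± 8.48 FPKM (SD, n = 3), where HIF1A had a fitted value of -0.38. Since both subunits pair with ARNT, their ratio was computed within each library. EPAS1 had 0.449, 0.423 and 0.537 times the FPKM of HIF1A in Empty and 1.83, 1.95 and 1.56 times in LINC00862. HIF1A was thus the more abundant transcript in every Empty library and EPAS1 in every LINC00862 library. The log2 ratio was -1.10 ± 0.18 against 0.82 ± 0.17 (SD, n = 3), a difference of 1.92 (exact two-sided permutation test, p = 0.1, adjusted p = 0.1 over 4 ratios), and 0.1 is the smallest p that 3 against 3 libraries allow.

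The other HIF subunits were read from the same table. ARNT, the common beta subunit, rose from 4.54 ± 1.41 to 11.4 ± 1.07 FPKM (log2 fold change 1.52 ± 0.18 SE, edgeR adjusted p = 9.35e-05). ARNT2, a related beta subunit best known from neural tissue, rose from 0.589 ± 0.0658 to 30.9 ± 5.01 FPKM (5.88 ± 0.17, adjusted p = 3.35e-08), a larger fitted change than that of any of the 10 genes except CA9. HIF3A, which encodes one more alpha subunit, had too few reads to be tested. Of the 4 subunits tested, 3 were higher and none lower, with a median log2 fold change of 1.54 beside 0.11 over all genes. Among all genes tested, 34.4% were higher and 29.8% lower.

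Of 14 genes that regulate HIF, 3 were higher and 7 lower, beside 34.4% and 29.8% of all genes tested. Their median log2 fold change was -0.49. EGLN3, a prolyl hydroxylase that is itself a HIF target, rose from 0.836 ± 0.0687 to 4.94 ± 0.439 FPKM (log2 fold change 2.73 ± 0.16 SE, edgeR adjusted p = 1.11e-06), and SIAH1, a ubiquitin ligase that targets prolyl hydroxylases, rose from 3.52 ± 0.0937 to 14.3 ± 0.364 (2.20 ± 0.14, adjusted p = 1.69e-06). CITED2, which competes with HIF-1α for its coactivator, fell from 68.7 ± 4.38 to 11.5 ± 1.72 FPKM (-2.41 ± 0.14, adjusted p = 1.11e-06). The adaptors of the VHL complex ELOB and ELOC did not pass, with log2 fold changes of -0.49 and -0.04. VHL and the prolyl hydroxylase EGLN1 are added for their role, outside the naming rule and after their values were seen: VHL fell by 0.49 and EGLN1 rose by 0.37 on the log2 scale (adjusted p = 0.0226 and 0.0423). EGLN1 lost its call in 10 of 13 alternative fits and VHL in 4.

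VEGFA (ENSG00000112715, chromosome 6, 43770184 to 43786487, plus strand), the main growth factor of blood vessel endothelium and a classical HIF target, was higher in LINC00862. Its FPKM was 6.83, 5.65 and 4.60 in Empty and 23.7, 25.3 and 26.0 in LINC00862. The lowest LINC00862 library stood above the highest Empty library by more than 3 times. VEGFA rose by 2.32 ± 0.16 on the log2 scale (SE; 95% interval 1.95 to 2.69, edgeR adjusted p = 3.49e-06), which placed its mean level at the 94.0th percentile of all tested genes in LINC00862, up from the 71.6th in Empty.

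VEGFB (ENSG00000173511, chromosome 11, 64234538 to 64238793, plus strand) encodes a ligand of the receptor FLT1 with a weak effect on vessel sprouting. Its FPKM was 33.7, 41.1 and 60.2 in Empty and 22.2, 18.5 and 21.6 in LINC00862. The groups did not overlap, and Empty replicate 3 was well above the other two. VEGFB fell by 0.95 ± 0.25 on the log2 scale (SE; 95% interval -1.51 to -0.39, edgeR adjusted p = 0.00793). Without Empty replicate 3 it fell by 0.63, still past the test (adjusted p = 0.0168).

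VEGFC (ENSG00000150630, chromosome 4, 176683538 to 176792922, minus strand), the main growth factor of lymphatic vessels, had the tightest replicates of the 10 genes in Empty. Its FPKM was 9.14, 9.42 and 9.81 in Empty and 0.889, 1.15 and 1.02 in LINC00862, with 1583, 1608 and 1713 reads in Empty and 178, 200 and 180 in LINC00862. Its mean was 9.26 times higher in Empty. VEGFC fell by 3.04 ± 0.19 on the log2 scale (SE; 95% interval -3.47 to -2.60, edgeR adjusted p = 1.69e-06), and its level went from the 80.3rd to the 42.9th percentile of all tested genes.

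The 3 ligands thus moved in different directions, and the summed FPKM of the 5 VEGF ligands was 51.1, 57.6 and 77.1 in Empty and 47.0, 45.3 and 49.0 in LINC00862. Within that sum VEGFA took 13.4%, 9.80% and 5.97% in Empty and 50.4%, 55.9% and 53.1% in LINC00862. VEGFB took 65.8%, 71.2% and 78.0% in Empty and 47.2%, 40.8% and 44.1% in LINC00862. VEGFB was thus the most abundant ligand in every Empty library and VEGFA in every LINC00862 library. VEGFC took 17.9%, 16.3% and 12.7% in Empty and 1.89%, 2.55% and 2.09% in LINC00862. VEGFA had 0.203, 0.138 and 0.0765 times the FPKM of VEGFB in Empty and 1.07, 1.37 and 1.21 times in LINC00862. Against VEGFC it had 0.747, 0.600 and 0.469 times in Empty and 26.7, 22.0 and 25.4 times in LINC00862. The differences of the log2 ratios were 3.23 and 5.37, each without overlap (exact two-sided permutation test, p = 0.1, adjusted p = 0.1, the smallest possible).

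PGF, the placental growth factor, fell from 1.85 ± 0.585 to 0.254 ± 0.0264 FPKM (log2 fold change -2.68 ± 0.30 SE, edgeR adjusted p = 6.1e-05). The receptors that bind these ligands were scarce in both groups. KDR, the main signalling receptor for VEGFA, averaged 0.180 and 0.118 FPKM, FLT1 averaged 0.0303 and 0.00959, and neither passed the test; FLT4, the VEGFC receptor, had at most 18 reads in any library and was not tested. The coreceptor NRP1 was the abundant one, at 12.5 ± 4.29 and 9.44 ± 0.567 FPKM, with a log2 fold change of -0.22 (adjusted p = 0.352) whose sign changed under upper quartile scaling and without Empty replicate 1. Of the 8 ligands and receptors tested, 1 was higher and 3 were lower, beside 34.4% and 29.8% of all genes tested.

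ANGPTL4 (ENSG00000167772, chromosome 19, 8363289 to 8374370, plus strand) is induced in many tissues by low oxygen and by fatty acids. Its FPKM was 2.87, 3.57 and 4.04 in Empty and 2.28, 2.27 and 2.38 in LINC00862. The FPKM values of the groups did not overlap, but CPM, counts scaled to library size with TMM (the trimmed mean of M-values), did, at 7.01, 9.68 and 11.1 in Empty and 6.65, 6.40 and 7.57 in LINC00862. The log2 fold change was -0.43 ± 0.23 (SE; 95% interval -0.95 to 0.10, edgeR adjusted p = 0.134). It was -0.58 and passed without Empty replicate 1 (adjusted p = 0.0312), and it was -0.26 without Empty replicate 3. Of the 4 angiopoietin-like genes tested, ANGPTL1 was higher and ANGPTL2 lower, named after their values were seen, and ANGPTL2 lost its call in 4 of 13 alternative fits. Both were scarce: ANGPTL1 averaged 0.00785 FPKM in Empty and 0.151 in LINC00862, and ANGPTL2 averaged 0.122 and 0.0169.

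ADM (ENSG00000148926, chromosome 11, 10305073 to 10307397, plus strand) moved least of the 10 genes. Its FPKM was 19.7, 24.7 and 22.3 in Empty and 18.3, 17.3 and 19.4 in LINC00862. The groups lay side by side with a gap of less than 1 FPKM, and on the TMM scale they overlapped, at 45.1, 62.7 and 57.3 CPM in Empty and 49.9, 45.7 and 57.8 in LINC00862. The log2 fold change was -0.11 ± 0.17 (SE; 95% interval -0.49 to 0.28, edgeR adjusted p = 0.605), and its sign was positive under upper quartile scaling (0.11) and without Empty replicate 2. The interval still allows a change of up to 0.49 downward. The related peptide ADM2 rose from 0.204 ± 0.0987 to 6.82 ± 1.21 FPKM (log2 fold change 5.23 ± 0.35, adjusted p = 2.56e-06).

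Among the receptor genes for adrenomedullin, CALCRL, its main receptor, averaged 0.0393 and 0.0496 FPKM and, like ADM, did not pass the test. RAMP2, an accessory protein, had 6, 8 and 25 reads in Empty and 0, 0 and 7 in LINC00862 and was not tested. The accessory protein RAMP1, which pairs with CALCRL for a related peptide, fell from 5.48 ± 2.32 to 1.38 ± 0.275 FPKM (log2 fold change -1.84 ± 0.37 SE, edgeR adjusted p = 0.00208). ACKR3, an atypical receptor that scavenges adrenomedullin, fell from 6.40 ± 0.989 to 0.224 ± 0.0564 FPKM (-4.64 ± 0.26, adjusted p = 9.24e-07). Of the 6 genes tested in this group, 1 was higher and 2 were lower, beside 34.4% and 29.8% of all genes tested.

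CA9 (ENSG00000107159, chromosome 9, 35673918 to 35681159, plus strand) encodes carbonic anhydrase IX, which hydrates carbon dioxide at the cell surface and is widely used as a tissue marker of hypoxia. It was the most abundant of the 10 transcripts in Empty and the least abundant in LINC00862. Its FPKM was 68.1, 83.7 and 102 in Empty and 0.405, 0.511 and 0.419 in LINC00862, that is, 7254, 8785 and 10974 reads against 51, 56 and 46. The mean was 190 times higher in Empty. CA9 fell by 7.38 ± 0.27 on the log2 scale (SE; 95% interval -7.98 to -6.77, edgeR adjusted p = 8.55e-08), and 6.36% of the tested genes had a larger fitted change. Its level went from the 97.9th to the 29.9th percentile. ARHGEF39 overlaps CA9 by 1949 bases on the opposite strand and, with 865, 1229 and 1165 reads in Empty and 518, 556 and 702 in LINC00862, fell by 0.77 (adjusted p = 0.0261), a call lost in 5 of 13 alternative fits.

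CA12 (ENSG00000074410, chromosome 15, 63321378 to 63381846, minus strand) encodes carbonic anhydrase XII, which catalyses the same reaction at the same face of the membrane. Its FPKM was 0.310, 0.210 and 0.190 in Empty and 12.3, 12.4 and 9.64 in LINC00862, that is, 145, 97 and 90 reads against 6584, 5709 and 4523. The groups lay far apart, the mean being 48.3 times higher in LINC00862. CA12 rose by 5.76 ± 0.21 on the log2 scale (SE; 95% interval 5.29 to 6.23, edgeR adjusted p = 8.28e-08), and 10.1% of the tested genes had a larger fitted change. The FPKM of CA12 was 0.00456, 0.00251 and 0.00185 times that of CA9 in Empty and 30.4, 24.2 and 23.0 times in LINC00862. The most abundant membrane carbonic anhydrase of the pair was therefore CA9 in every Empty library and CA12 in every LINC00862 library, with a difference of 13.18 between the log2 ratios (exact two-sided permutation test, p = 0.1, adjusted p = 0.1). Among 5 hypoxia, angiogenesis and signalling terms carried by the deposited table, CA12 had none, while CA9 was listed under response to hypoxia.

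Of 14 carbonic anhydrases in the deposited table, 9 had enough reads to be tested. Of these 9, 7 were higher, CA9 alone was lower, and the median log2 fold change was 4.21. CA3 and CA8 passed the low-count filter only through LINC00862, so they could only be called higher. These counts stand beside 34.4% of all genes tested called higher and 29.8% called lower. CA2, the fast cytosolic enzyme, rose from 0.187 ± 0.0729 to 31.4 ± 3.04 FPKM (log2 fold change 7.52 ± 0.29 SE, edgeR adjusted p = 1.11e-07) and was the most abundant carbonic anhydrase in LINC00862. CA13, also cytosolic, rose from 0.272 ± 0.116 to 4.42 ± 0.0227 (4.21 ± 0.31, adjusted p = 4.14e-06). CA8, which lacks catalytic activity, had 0, 4 and 0 reads in Empty and 1463, 1228 and 1535 in LINC00862. CA11, another member without activity, rose from 2.47 ± 0.420 to 8.34 ± 1.51, CA14, which sits at the cell surface, rose from 0.163 ± 0.0961 to 0.921 ± 0.133, and CA3, with 0, 3 and 0 reads in Empty, had 79, 63 and 72 in LINC00862. The mitochondrial CA5B did not pass, at 0.462 ± 0.129 and 0.479 ± 0.114 FPKM. Summed over the family, FPKM was 71.8 to 106 in Empty and 53.9 to 64.0 in LINC00862.

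**Figure D2:**
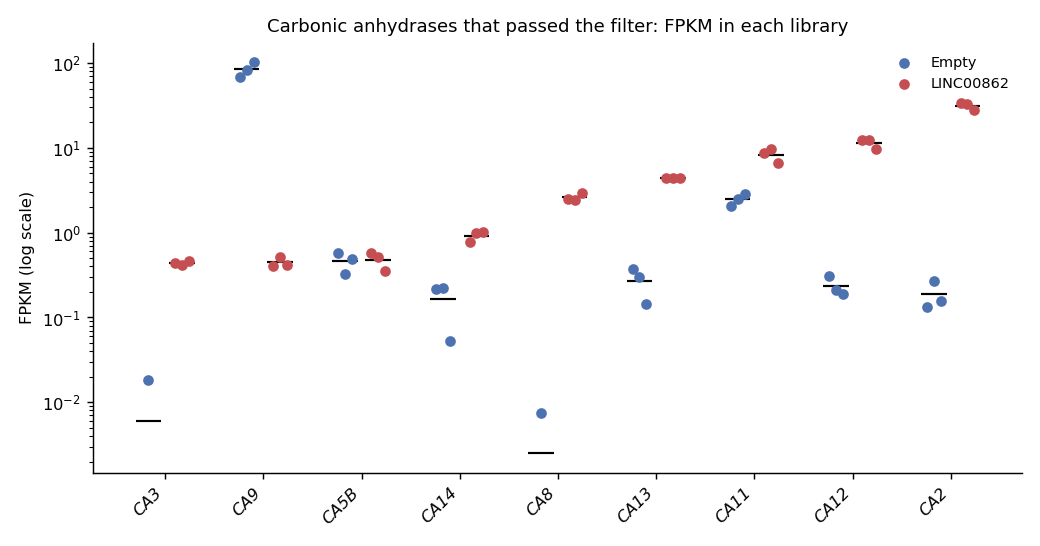
FPKM (log axis) of the 9 tested carbonic anhydrases in each of the 6 libraries; libraries at 0, which occur for CA3 and CA8 in Empty, cannot be drawn on this axis. CA9 is the only one with lower values in LINC00862 that passed the test, and CA5B has overlapping groups.

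NDRG1 (ENSG00000104419, chromosome 8, 133237175 to 133302022, minus strand) is induced by low oxygen, iron chelation and differentiation in many epithelia. Its FPKM was 16.4, 12.0 and 15.2 in Empty and 10.3, 11.5 and 6.75 in LINC00862. The FPKM groups did not overlap, but the lowest Empty library was within 1 FPKM of the highest LINC00862 library. The log2 fold change was -0.45 ± 0.19 (SE; 95% interval -0.87 to -0.02). Its unadjusted p was 0.0403 and its edgeR adjusted p was 0.0610, so NDRG1 missed the threshold, and its fitted value ran from -0.57 to -0.29 as each library was left out. In its family, NDRG2, a gene expressed in differentiated liver, rose from 0.0669 ± 0.0326 to 10.7 ± 1.71 FPKM (7.42 ± 0.29, adjusted p = 1.22e-07). NDRG3 and NDRG4 did not pass, with log2 fold changes of 0.09 and -0.34.

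**Figure D3:**
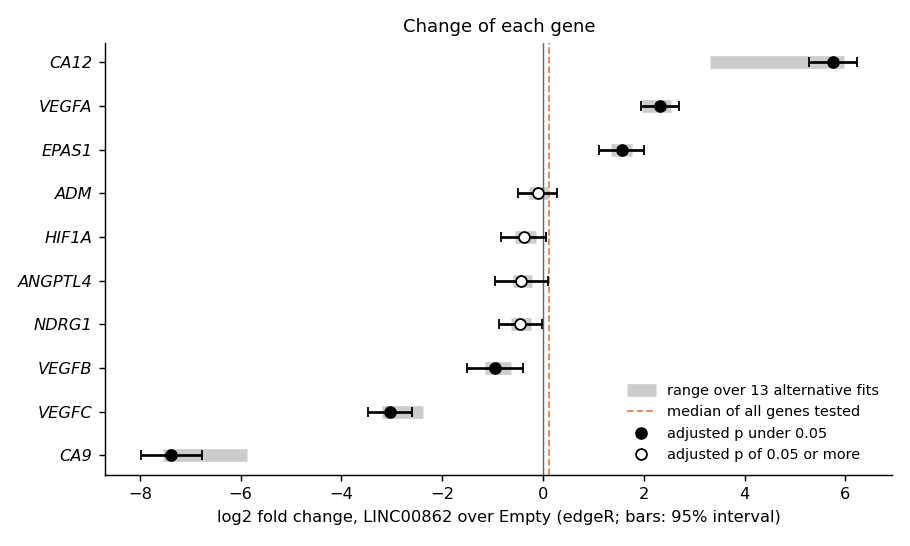
Log2 fold change of LINC00862 against Empty for the 10 genes, with the 95% interval of the edgeR fit, beside the values under the 13 alternative fits. EPAS1, VEGFA and CA12 lie above 0 and VEGFB, VEGFC and CA9 below 0 in every fit, while ADM crosses 0.

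By FPKM, all 10 genes had groups that did not overlap, beside 71.1% of all genes tested. On the TMM scale, a comparison chosen after the data were seen, 7 of 10 did not overlap (HIF1A, ANGPTL4 and ADM did), beside 71.1% as well. The order of levels differed between the groups. In Empty it ran from CA9 through VEGFB, HIF1A, ADM, EPAS1, NDRG1, VEGFC, VEGFA and ANGPTL4 to CA12. The library ranges of VEGFB and HIF1A overlapped, as did those of ADM and EPAS1 and those of EPAS1 and NDRG1. In LINC00862 it ran from EPAS1 through VEGFA, HIF1A, VEGFB, ADM, CA12, NDRG1, ANGPTL4 and VEGFC to CA9. There the ranges of neighbours from VEGFA to ADM overlapped, and so did those of CA12 and NDRG1.

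Because 64.2% of all genes changed, the 10 genes were also read against the median of all genes, which scaling moves: it was 0.11 with TMM, 0.32 when scaled to the upper quartile and -0.05 when scaled to the total alone. Relative to that median, ADM was at -0.22 under each of 4 scalings. HIF1A was between -0.51 and -0.49, and ANGPTL4 at -0.54. CA9 was between -7.49 and -7.47 and CA12 between 5.64 and 5.65, so that the scaling moved the 10 genes together with all others. Scaling adds nearly the same amount to every gene, so this agreement follows from the arithmetic and is no test of the fits.

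Other HIF targets outside the 10 genes were mostly lower, where 34.4% of all genes tested were higher and 29.8% lower. Of 26 tested targets outside glycolysis, 4 were higher (EGLN3, ERO1A, HILPDA and HMOX1, of which the last 3 were named after their values were seen) and 16 lower, with a median log2 fold change of -0.71. BNIP3, a mitophagy receptor, fell from 58.7 ± 4.47 to 4.06 ± 0.340 FPKM (-3.68 ± 0.15 SE, edgeR adjusted p = 1.6e-07). PFKFB4, which makes a regulator of glycolysis, fell by 2.91 on the log2 scale. BHLHE40 and TFRC, a repressor and the transferrin receptor, did not pass, at -0.33 and -0.32. Of 14 targets in glycolysis and lactate export, 2 were higher and 11 lower, with a median of -1.55. The higher ones, HK2 and GPI, named after their values were seen, lost their calls in 8 and 7 of 13 alternative fits. SLC16A3, the lactate exporter MCT4, fell from 78.9 ± 13.2 to 0.816 ± 0.183 FPKM (-6.43 ± 0.25, adjusted p = 1.32e-07), and the enzymes ENO2 and PGAM1 fell by 3.84 and 2.48. ALDOA, an aldolase, did not pass, at 482 ± 112 and 464 ± 79.3 FPKM.

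VEGFA, EPAS1 and CA12 therefore stood apart in direction from most of these targets, while CA9, VEGFB and VEGFC had the direction of most of them. This is a description of counts, since 64.2% of all genes passed the same test, 34.4% higher and 29.8% lower. By the terms in the deposited table, 156 genes of response to hypoxia were tested, with 47 higher, 69 lower and a median of -0.39, and 8 of the 10 genes carry that term. For the term angiogenesis 72 of 219 tested genes were higher and 106 lower, with a median of -0.62. The HIF-1 signaling pathway had 23 of 90 higher and 38 lower, and the VEGF signaling pathway 16 of 56 higher and 26 lower, with medians of -0.37 and -0.43.

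**Figure D4:**
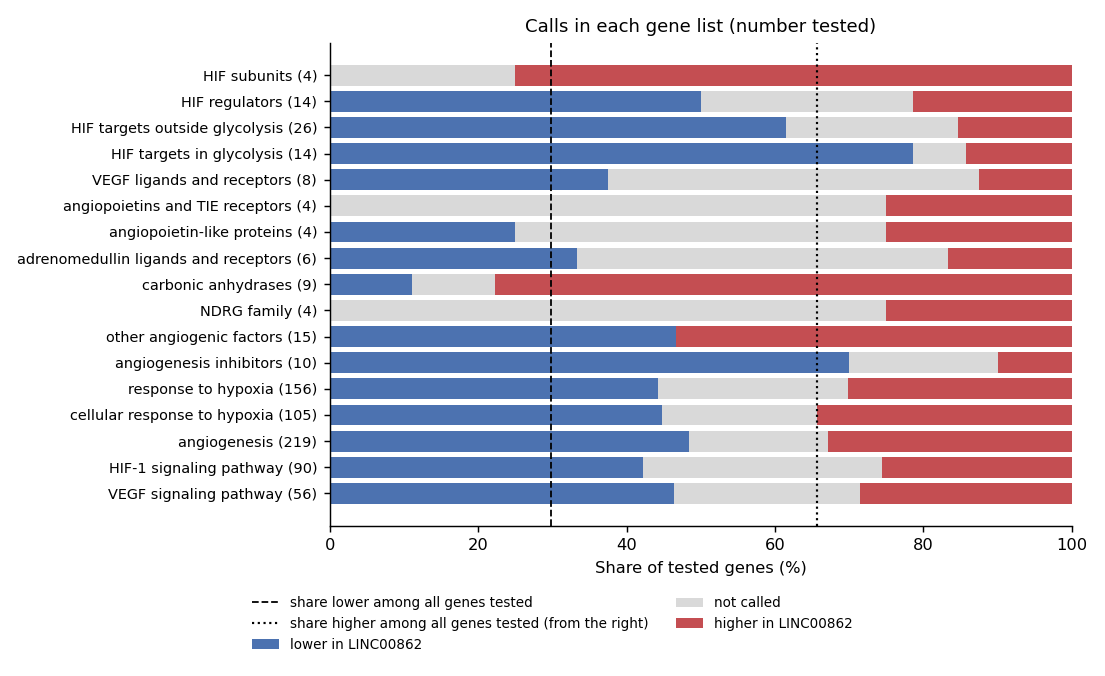
Share (percent) of tested genes called higher, called lower and not called by edgeR at a false discovery rate of 0.05. Bars stand for the 12 gene lists and for the terms in the deposited table. Lines mark the shares of all genes tested, 29.8% lower and 34.4% higher. The 2 lists of HIF targets hold 16 and 11 genes called lower against 4 and 2 called higher, while the carbonic anhydrases hold 7 higher and 1 lower.

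A list of other genes of vessel growth, which held the receptor EPHA2 besides growth factors, also divided. All 15 that were tested passed, 8 higher and 7 lower, with EPHA2 among the lower ones. HGF and PDGFD passed the low-count filter only through LINC00862, and FGF1 only through Empty, so each could only be called that way. Of all genes tested, 34.4% were higher and 29.8% lower. CCN1, a matricellular protein that binds integrins on endothelium, fell from 348 ± 8.48 to 4.32 ± 0.107 FPKM (-6.16 ± 0.19 SE, edgeR adjusted p = 3.84e-08). FGF1 and FGF2, fibroblast growth factors, fell by 7.16 and 6.21. Among the 8 higher ones, EFNA1 rose from 6.07 to 127 FPKM, ANG from 1.42 to 38.8 and TYMP from 0.947 to 29.6. EFNA1, ANG, TYMP, EPHA2, HGF and PDGFD were named after their values were seen. Of 10 angiogenesis inhibitors 7 were lower and 1 (COL4A3, named after its value was seen) was higher, with a median of -3.58. THBS1, thrombospondin 1, fell from 63.0 ± 21.3 to 2.46 ± 0.344 FPKM (-4.49 ± 0.24, adjusted p = 6.02e-07), COL18A1, the precursor of endostatin, fell by 4.61, and THBS2 had 650, 447 and 417 reads in Empty and 2, 0 and 0 in LINC00862. Of 4 angiopoietins and TIE receptors tested, 1 was higher, none was lower and 3 did not pass. The higher one, ANGPT1, a ligand of the endothelial receptor TEK, had 0, 0 and 4 reads in Empty and 833, 831 and 481 in LINC00862. It passed the low-count filter only through LINC00862. ANGPT2 and TIE1 did not pass the test, with log2 fold changes of 0.05 and -0.88 (edgeR adjusted p = 0.931 and 0.0937), and neither did TEK.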

How the data were processed

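Messenger RNA was selected with oligo(dT), made into libraries by a method that marks strand, and sequenced in 6 libraries. The authors deposited, in a single table, raw read counts (unit: count, not normalized) and FPKM values for each gene and library. The submitters' processing notes list cutadapt 1.9, HISAT2 2.0.4, StringTie 1.3.4d, UMI-tools, DESeq2, edgeR and hg38, with no role or order. Whether the counting used strand or molecular identifiers is not given in the sources used here. Value columns were matched to the labels by name.

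Counts were filtered with filterByExpr, scaled by TMM and compared with the quasi-likelihood test of edgeR 4.0.16 in R 4.3.3, with Benjamini-Hochberg adjustment over all 20741 genes at 0.05. A gene near 0 reads in a group passed the filter through the other group alone, so its call could go only that way. Standard errors came from the test statistic. Ratios of 2 genes were compared with an exact two-sided permutation test (scipy 1.17.1), and figures were drawn with matplotlib 3.10.9. Of the fits, only the main edgeR fit was also run on simulated counts. Far fewer genes changed there than in these data, so that run does not cover the case in which most genes change. Alternatives were DESeq2 1.42.0, limma 3.58.1 on log2(FPKM + 0.1) and log2(FPKM + 1), other scalings, every gene with at least 1 count, a replicate block and leaving out each library. The lowest count of the 10 genes in any library was 46, and at such counts, as for CA9 in LINC00862, counting error alone is as large as the spread between libraries.

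The 10 genes and all lists were chosen with earlier results of these data known, and no list was tested as a set. Besides the 10 genes, LINC00862 and the genes that overlap the 10, the text names, of each list, up to 3 called genes with the largest change and a group mean reaching 1 FPKM, up to 2 uncalled genes with the highest mean, and members of the HIF subunit, VEGF, carbonic anhydrase and adrenomedullin lists. By a chi-square statistic per gene, computed without a p-value, no 2 libraries differed as little as sampling noise. LINC00862 replicates 1 and 2 were the closest, at 17.6, while they stood at 122 and 137 from replicate 3. The Empty libraries stood at 89.3 to 222 from each other. Promoters were searched for the motif in both orientations.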

Additional observations from a re-analysis of the deposited data

How the results depend on the processing

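EPAS1, VEGFA, VEGFB, VEGFC, CA9 and CA12 kept their direction and passed the test in all 13 alternative fits. Their log2 fold changes ranged from 1.34 to 1.77, 1.97 to 2.54, -1.15 to -0.63, -3.20 to -2.37, -7.54 to -5.87 and 3.32 to 5.97. The values nearest 0 of EPAS1, VEGFA, VEGFC, CA9 and CA12 came from log2(FPKM + 1). With library size only, and with limma on log2(FPKM + 0.1) or log2(FPKM + 1), 5 of the 10 genes were called lower, since ANGPTL4 and NDRG1 were added; the cause was not tested. HIF1A ranged from -0.56 to -0.14, ANGPTL4 from -0.59 to -0.22 and NDRG1 from -0.63 to -0.24. ADM was at 0.11 under upper quartile scaling, and it ranged from -0.22 to 0.0011 as each library was left out, and no fit called it. Among uncalled genes of the lists, the sign of ELOC (0.0083 with DESeq2, 0.17 with upper quartile scaling, -0.19 to 0.055 as each library was left out), NRP1 (0.0024 with upper quartile scaling, -0.34 to 0.041), ALDOA (-0.046 with library size only, -0.043 with both limma fits, -0.078 to 0.34) and NDRG3 (-0.075, -0.082 and -0.078 in those 3 fits) changed. The difference of the CA12 to CA9 log2 ratio was 12.37 with 0.1 added to FPKM. Leaving out each library gave 6 to 7 called genes among the 10.

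With a replicate block, 6 of the 10 genes and 12098 of all genes passed. The numbers did not pair the libraries, since the correlations of the deviations of same-numbered libraries were -0.05, -0.03 and -0.01. Under upper quartile scaling 8060 genes were higher and 5291 lower, and with library size only 6437 and 6826, beside 7145 and 6176. Groups of 3 libraries allow no single-gene permutation p below 0.1, and transcript levels do not give protein levels.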
